A study of Mus musculus with 40 samples.

Results

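Saracatinib is an inhibitor of Src family kinases, enzymes at the inner side of the cell membrane that pass on signals from integrins and growth factor receptors. The comparison described here asks what the drug changed in lungs without induced fibrosis, in mice that had received an empty adenoviral vector by the nose. It set 5 libraries from mice given the empty vector and saracatinib against 5 from mice given the empty vector and vehicle, 10 libraries of the 40 in the series, chosen by their labelled stimulation and inhibitor. All were left lungs of C57BL/6 mice, and gavage with saracatinib at 20 mg/kg or with vehicle began on day 10 after the vector and went on daily, with harvest on day 28 after 18 days of treatment. The same table held 5 Ad-TGFβ1 saracatinib and 5 Ad-TGFβ1 vehicle libraries, from mice given an adenovirus that carries mouse TGFβ1 under a CMV promoter, and a second table held 5 saline saracatinib and 5 saline vehicle libraries, which are the other lungs without induced fibrosis. That second table also held 5 bleomycin saracatinib and 5 bleomycin vehicle libraries, which entered only the fits of all 40 libraries. The sources used here do not give the age of the mice. The vector, its route and the strain were shared by both empty-vector groups. The labels speak of mice of both sexes, but Xist had 3 to 12 counts in all 10 libraries and Y-linked genes were expressed in each. Whole lung was sequenced, so fewer cells of a type and less RNA per cell cannot be told apart.

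Total counts were 9.86 to 16.0 M (megacounts) in the saracatinib libraries and 9.29 to 12.5 M in the vehicle libraries. Markers of lung were present in every library, among them surfactant protein C (Sftpc) at 1670 to 2430 CPM (counts for each M counts of a library, after scaling) with saracatinib and 1290 to 2910 CPM with vehicle. The heart gene Myh6 was also present, at 212 to 1520 CPM with saracatinib and 30.4 to 951 CPM with vehicle, while the thymocyte genes Rag1 and Ptcra had at most 2 counts. Vehicle library 1 stood apart. On the first principal component of the 20 libraries of the adenoviral model it lay at -15.0, where the 5 empty-vector saracatinib libraries ran from -8.0 to 33.0, the other 4 empty-vector vehicle libraries from 24.9 to 67.1, and the Ad-TGFβ1 libraries from -22.8 to 7.2 with saracatinib and from -40.3 to -17.4 with vehicle. Fibronectin (Fn1) was at 871 CPM in vehicle library 1 and at 341 to 398 CPM in the other vehicle libraries, against 722 to 1030 CPM in Ad-TGFβ1 vehicle lungs. Its Tgfb1 level was 81.2 CPM, against 61.1 to 69.6 CPM in the other empty-vector vehicle libraries and 140 to 280 CPM in Ad-TGFβ1 vehicle lungs. Counts of called genes are therefore given with and without this library.

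**Figure D1:**
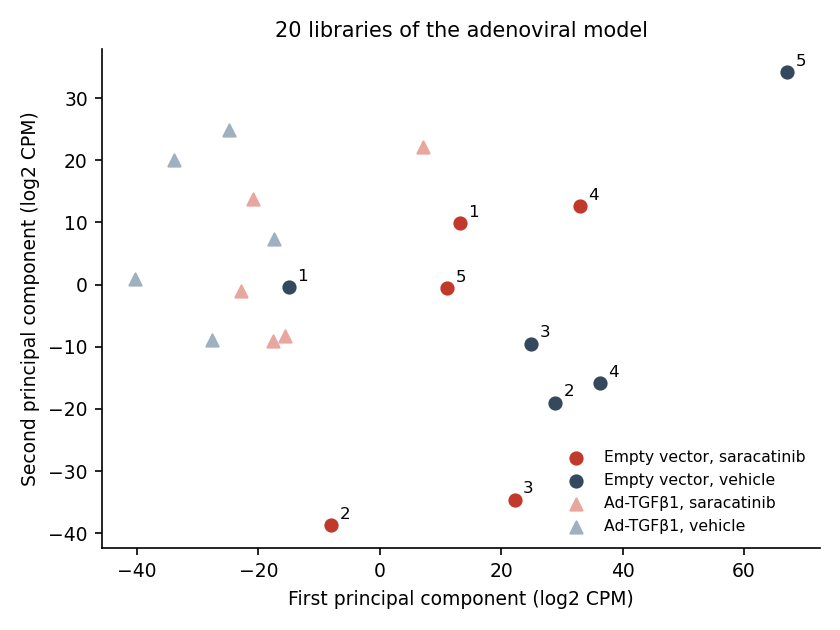
First against second principal component of log2 CPM over the 20 libraries of the adenoviral model, with circles for empty-vector lungs (numbers are library numbers) and triangles for Ad-TGFβ1 lungs. Empty-vector vehicle library 1, at -15.0 on the first component, lies among the Ad-TGFβ1 libraries, while the other 4 vehicle libraries lie at 24.9 or above.

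A gene is named as called where edgeR's quasi-likelihood test gave a p under 0.05 after adjustment over all genes. Of 18834 genes tested, 1 was called (0.00531%). This was Adm, which encodes adrenomedullin, a peptide that widens blood vessels and that many cells make under low oxygen. It lies at chr7:110627661-110629820 on the plus strand (GRCm38). The annotated gene Gm28863 overlaps it on the opposite strand, and the sources used here do not give the strand setting of the counting. Adm had 3.38, 3.25, 2.90, 3.44 and 1.75 CPM in the saracatinib libraries, against 7.36, 5.02, 7.30, 7.60 and 5.93 CPM in the vehicle libraries. The highest saracatinib library was below the lowest vehicle library. The mean was 2.94 ± 0.70 CPM with saracatinib and 6.64 ± 1.12 CPM with vehicle (SD, n = 5 each), a log2 fold change of -1.17 ± 0.18 (standard error, edgeR adjusted p = 0.0417). The log2 fold change ran from -1.24 to -1.02 when each library was left out in turn, and Adm was called in 2 of those 10 fits, with edgeR adjusted p from 0.0104 to 0.23. With only the 10 empty-vector libraries in the fit, the log2 fold change was -1.17 and the edgeR adjusted p 0.742. That fit estimates the spread from fewer samples and without the Ad-TGFβ1 libraries. On the first principal component, empty-vector libraries ran from -15.0 to 67.1 with vehicle and -8.0 to 33.0 with saracatinib. Ad-TGFβ1 libraries ran from -40.3 to -17.4 with vehicle and -22.8 to 7.2 with saracatinib. Why the call was lost was not tested.

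Ad-TGFβ1 and saline lungs gave Adm values on the same side, while the drug effect in bleomycin lungs was not tested here. On the scale of all 40 libraries, Adm had 2.99, 2.40, 1.64, 2.37 and 1.87 CPM in Ad-TGFβ1 saracatinib lungs, against 3.14, 3.26, 3.93, 3.38 and 3.33 CPM in Ad-TGFβ1 vehicle lungs. In saline lungs it had 8.98, 8.75, 7.48, 8.87 and 5.63 CPM with saracatinib, against 10.2, 13.7, 12.5, 11.7 and 14.2 CPM with vehicle. The groups overlapped in neither comparison. The log2 fold change was -0.59 in Ad-TGFβ1 lungs (edgeR adjusted p = 0.395) and -0.64 in saline lungs (edgeR adjusted p = 0.16), and neither was called. The drug effect on Adm in empty-vector lungs minus that in Ad-TGFβ1 lungs was -0.58 ± 0.26 (edgeR adjusted p = 0.481), and minus that in saline lungs -0.51 ± 0.24 (edgeR adjusted p = 0.342).

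**Figure D2:**
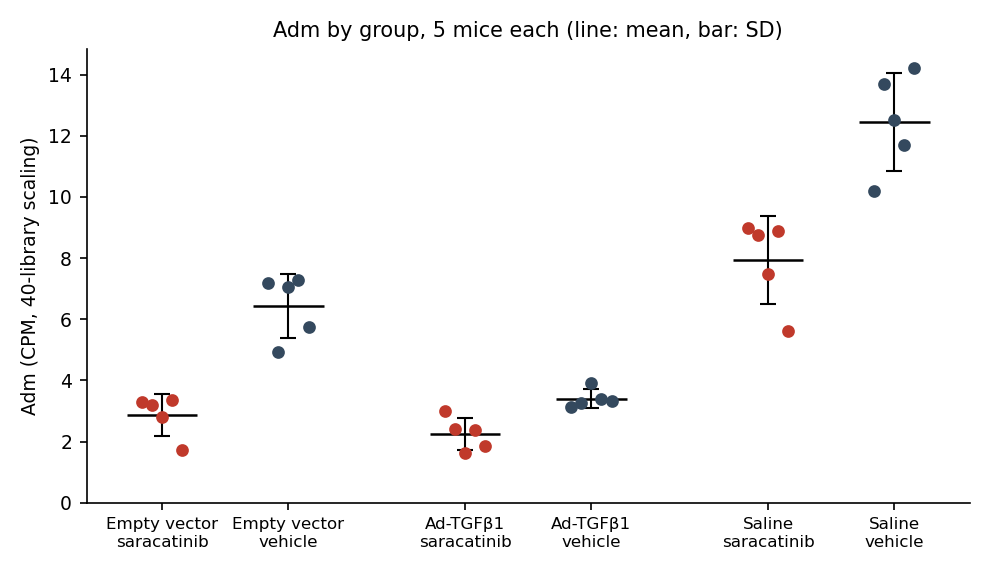
Adm in CPM, scaled over all 40 libraries, in empty-vector, Ad-TGFβ1 and saline lungs, with saracatinib (red) left of vehicle (dark blue) and 1 point per mouse. Lines are means and bars SD (n = 5 each). The saracatinib points lie below all vehicle points in each of the 3 kinds of lung.

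The promoter of Adm is shown because it belongs to the gene that was called, beside those of 3 clock genes described next, from RefSeq on GRCm38.p6 and running from 250 bases before to 50 bases after the start of the gene. Capitals mark matches, on either strand, to the motifs searched: the E-box CACGTG, bound by the clock activators, the D-boxes TTATGTAA and TTACGTAA, bound by Dbp, Tef, Hlf and Nfil3, the letters AGGTCA, the core of the element bound by nuclear receptors such as Nr1d1 and Nr1d2, and the palindromic glucocorticoid response element. The windows are chr7:110627407-110627706 on the plus strand for Adm, chr4:151044616-151044915 on the minus strand for Per3, chr15:81802423-81802722 on the plus strand for Tef and chr14:18239057-18239356 on the minus strand for Nr1d2, each written 5′ to 3′.
Adm: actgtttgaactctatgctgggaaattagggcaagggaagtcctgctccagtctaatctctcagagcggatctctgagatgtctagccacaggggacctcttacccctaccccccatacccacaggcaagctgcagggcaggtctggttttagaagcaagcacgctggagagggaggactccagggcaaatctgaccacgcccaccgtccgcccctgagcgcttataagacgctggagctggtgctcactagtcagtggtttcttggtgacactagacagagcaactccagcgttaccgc
Per3: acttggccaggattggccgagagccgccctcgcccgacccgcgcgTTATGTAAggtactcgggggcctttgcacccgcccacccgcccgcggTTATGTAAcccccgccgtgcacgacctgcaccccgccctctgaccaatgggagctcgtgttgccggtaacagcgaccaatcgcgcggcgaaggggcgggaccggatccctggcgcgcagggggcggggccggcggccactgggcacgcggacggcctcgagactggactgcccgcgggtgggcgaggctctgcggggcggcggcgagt
Tef: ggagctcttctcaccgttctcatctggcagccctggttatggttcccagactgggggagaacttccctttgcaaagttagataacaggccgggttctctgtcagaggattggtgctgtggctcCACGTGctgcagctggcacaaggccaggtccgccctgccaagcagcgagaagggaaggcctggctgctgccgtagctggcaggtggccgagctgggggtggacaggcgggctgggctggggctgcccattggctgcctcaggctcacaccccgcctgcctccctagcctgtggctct
Nr1d2: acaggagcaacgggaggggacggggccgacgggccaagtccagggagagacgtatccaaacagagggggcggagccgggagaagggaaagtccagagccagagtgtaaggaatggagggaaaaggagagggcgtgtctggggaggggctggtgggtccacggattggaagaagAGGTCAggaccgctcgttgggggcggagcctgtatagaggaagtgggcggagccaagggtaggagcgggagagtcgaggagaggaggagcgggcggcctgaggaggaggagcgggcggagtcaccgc
None of the motifs searched was found in the Adm window. The Per3 window held 2 copies of TTATGTAA, the Tef window 1 CACGTG and the Nr1d2 window 1 AGGTCA. These 3 clock genes are examples that no rule picked. Npas2, Dbp, Nr1d1 and Hlf were not among the clock genes with a match, though some clock genes had no window. Of 32851 promoter windows, 7.15% held CACGTG, 0.938% TTATGTAA, 0.119% TTACGTAA, 16.3% AGGTCA and 0.0487% the glucocorticoid element. Of the 24 clock genes listed, 20 had a window, with 27 windows between them. CACGTG was in 8 of the 27 windows, TTATGTAA in 2 and AGGTCA in 5. By gene, CACGTG was in windows of 7 genes, TTATGTAA in those of 2 and AGGTCA in those of 5. The windows overlap where a gene has several starts, and a match does not show that a site is used.

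Beyond Adm, the genes with the smallest p-values included several of the circadian clock. The clock is a feedback loop present in most cells of the lung: Arntl (BMAL1) pairs with Clock or its relative Npas2 and switches on genes through the E-box, among them the Per and Cry genes, whose proteins hold this pair back, and Nr1d1 and Nr1d2 (REV-ERBα and REV-ERBβ), which repress Arntl, Npas2 and Nfil3. Dbp, Tef and Hlf carry the rhythm to output genes, and Nfil3 competes with them. None of the 24 clock genes was called over all genes. Of the 12 core clock genes, 3 were higher and 3 lower at an unadjusted p under 0.05, and of the 12 output genes 4 were higher and 1 lower, where 11.1% of all genes tested (2084 of 18834) passed that limit, 4.47% higher and 6.6% lower. The sources used here do not give the hour of harvest.

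On the activator side, Npas2 had 16.1, 8.70, 12.2, 6.48 and 9.72 CPM in the saracatinib libraries, against 16.1, 26.6, 29.4, 30.9 and 23.9 CPM in the vehicle libraries. The groups met at 16.1 CPM, in saracatinib library 1 and vehicle library 1. Its log2 fold change was -1.24 ± 0.25 (edgeR adjusted p = 0.385), and DESeq2 called it (adjusted p = 0.00786). Arntl had 43.1, 27.6, 33.3, 19.2 and 32.2 CPM with saracatinib and 53.9, 53.5, 48.5, 47.6 and 40.9 CPM with vehicle. Only saracatinib library 1 reached into the vehicle range, and the log2 fold change was -0.65 ± 0.18 (edgeR adjusted p = 0.385). Nfil3 had 11.1, 5.80, 6.45, 5.87 and 7.09 CPM with saracatinib and 16.2, 9.62, 12.9, 18.6 and 11.3 CPM with vehicle, where again saracatinib library 1 alone overlapped. Its log2 fold change was -0.91 ± 0.20 (edgeR adjusted p = 0.385, DESeq2 adjusted p = 0.0322). Cry1, a repressor of the loop, had a log2 fold change of -0.34 ± 0.10 (edgeR adjusted p = 0.385).

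The repressors and output factors named next lay on the other side, unlike the repressor Cry1 and Nfil3. Nr1d2, a nuclear receptor that represses Arntl, had 109, 153, 139, 198 and 163 CPM with saracatinib and 104, 107, 98.9, 87.4 and 110 CPM with vehicle. Of the saracatinib libraries, library 1 fell inside the vehicle range and the other 4 above it. Nr1d1, its close relative, had 105, 174, 187, 206 and 152 CPM with saracatinib and 112, 106, 85.9, 77.5 and 131 CPM with vehicle. The log2 fold changes were 0.58 ± 0.15 for Nr1d2 and 0.69 ± 0.18 for Nr1d1 (edgeR adjusted p = 0.385 for both). Dbp had 25.3, 65.1, 58.6, 90.8 and 50.7 CPM with saracatinib and 14.6, 32.2, 27.2, 19.8 and 42.4 CPM with vehicle. Its log2 fold change was 1.09 ± 0.31 (edgeR adjusted p = 0.385), and library 1 was the lowest of both groups. The log2 fold change was 0.65 for Hlf, 0.41 for Tef and 0.47 for the repressor Per3 (edgeR adjusted p = 0.385, 0.392 and 0.417), and 0.10 for Ciart, a further repressor of the loop (edgeR adjusted p = 0.842).

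**Figure D3:**
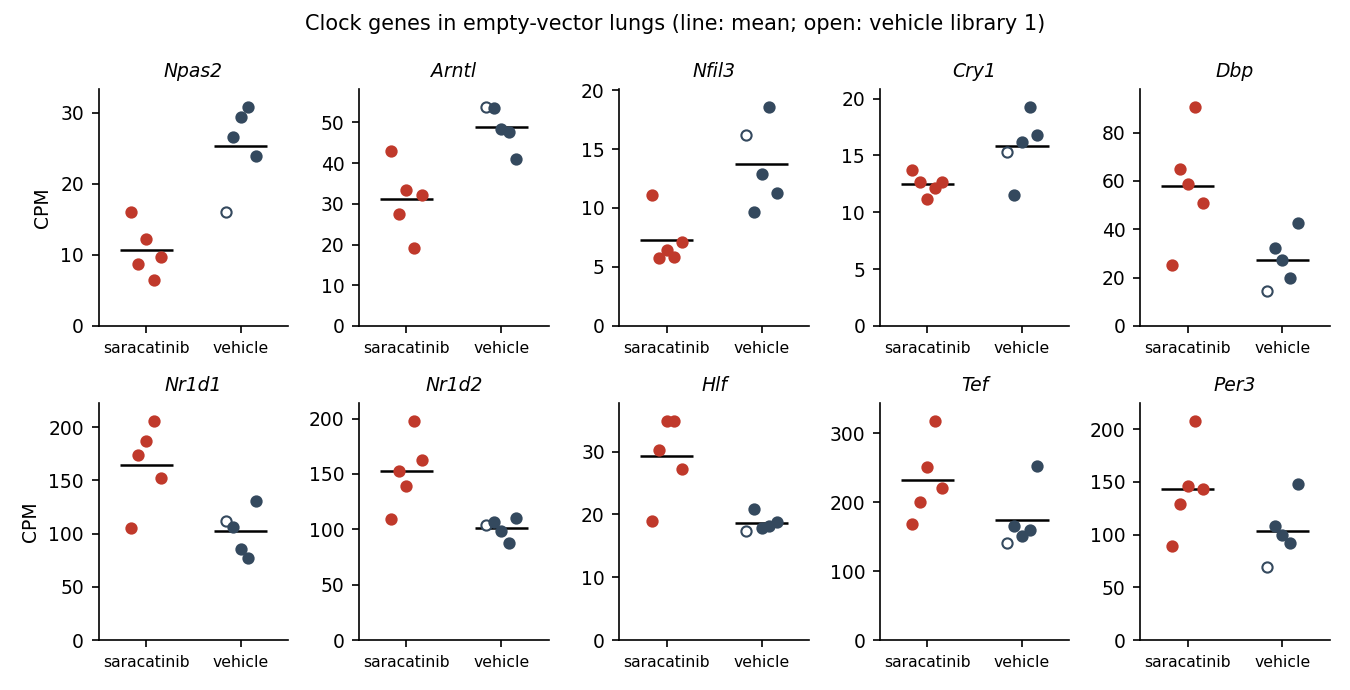
CPM of 10 clock genes in the empty-vector libraries, saracatinib (red) left of vehicle (dark blue), 1 point per mouse, with lines at the means and an open point for vehicle library 1. Npas2, Arntl, Nfil3 and Cry1 have lower means with saracatinib, and Dbp, Nr1d1, Nr1d2, Hlf, Tef and Per3 higher ones, and the groups overlap in each panel.

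The 10 clock genes plotted had the same signs in Ad-TGFβ1 and saline lungs. These share no library with the empty-vector comparison but share an estimate of the spread with it. In Ad-TGFβ1 lungs the log2 fold change was -1.02 for Arntl, -1.05 for Nfil3, 1.92 for Dbp, 0.80 for Nr1d2, 1.02 for Hlf, 0.93 for Tef and 1.07 for Per3, all called (edgeR adjusted p = 0.034, 0.0465, 0.0238, 0.0348, 0.0303, 0.0238 and 0.034), among the 17 genes called there (0.0903% of 18834). Npas2, at -1.29, was not called there (edgeR adjusted p = 0.0795). In saline lungs it was -0.67 for Npas2, -0.41 for Arntl, 1.58 for Dbp, 0.92 for Nr1d1 and 0.62 for Nr1d2 (edgeR adjusted p = 0.387, 0.436, 0.195, 0.16 and 0.173), with none of the 5 called, while Cry1 was called there (-0.52, edgeR adjusted p = 0.034). Nfil3 hardly differed in saline lungs, with means of 19.3 CPM with saracatinib and 20.3 CPM with vehicle, scaled over all 40 libraries. Its shared sign there is therefore of little weight. The drug effects on these clock genes did not differ past the threshold between empty-vector and Ad-TGFβ1 lungs or between empty-vector and saline lungs; for Dbp the edgeR adjusted p of the difference was 0.496 and 0.738. A p that misses the threshold does not show that the effects were alike.

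Some of the other genes with the smallest p-values separated the groups. Arrdc4, an arrestin-like gene that responds to glucose, had 49.8, 45.1, 48.5, 55.6 and 53.9 CPM with saracatinib, against 67.7, 57.7, 63.4, 81.8 and 74.0 CPM with vehicle. Pigr, which carries IgA across epithelium, had 84.4, 94.4, 102, 100 and 83.6 CPM with saracatinib, against 126, 137, 251, 231 and 136 CPM with vehicle. In both, every saracatinib library was below every vehicle library, as in 64 of the 18834 genes (0.34%), while 57 (0.303%) had every saracatinib library above. These shares were not compared with those from shuffled group labels. The genes of this paragraph were named for their small p-values, so a lack of overlap is no separate support for them. Their log2 fold changes were -0.45 ± 0.09 and -0.93 ± 0.19 (edgeR adjusted p = 0.385 for both), and DESeq2 called both (adjusted p = 0.0123 and 0.00786). Akip1 (-0.46) and Trafd1 (-0.28) also lay wholly below, and Pilrb1 (1.04), Zfp385b (0.64), Fam184a (0.36), Cdh13 (0.34) and Reep1 (0.45) wholly above, each with an edgeR adjusted p of 0.385. Pilrb1 has a close paralog, so its counts are uncertain.

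RNA of the kinases that the drug inhibits gave no call with all 10 libraries. Src had 91.7, 74.5, 74.4, 88.6 and 84.1 CPM with saracatinib and 84.5, 79.8, 84.0, 79.7 and 99.0 CPM with vehicle, a log2 fold change of -0.05 ± 0.07 (edgeR adjusted p = 0.809) that turned positive without some libraries. Of the 12 genes of the Src family and its regulator Csk, none was called, and the median log2 fold change was -0.02, equal to that of all genes. Yes1, a Src family kinase, had a log2 fold change of 0.18 ± 0.08 (edgeR adjusted p = 0.436), and Lyn, the family member known from blood cells, 0.06 ± 0.08 (edgeR adjusted p = 0.756). Of the 16 genes of focal adhesions, where Src acts on the cell's anchors, none was called (median 0.00). Without vehicle library 1, Yes1 rose (0.28 ± 0.07, edgeR adjusted p = 0.0256). Of the 16 focal adhesion genes 2 rose, the integrin chain Itgb1 (0.24, edgeR adjusted p = 0.032) and the caveolin Cav1 (0.55, edgeR adjusted p = 0.0273). In that fit 3.12% of all genes were called higher. The summed level of the focal adhesion list was highest of all 10 libraries in vehicle library 1 (7020 CPM). These values are of RNA and say nothing of kinase activity.

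Matrix genes were not called in these lungs with all 10 libraries; those called without vehicle library 1 are given with that fit. None of the 17 collagens, 19 collagen processing enzymes, 19 elastic fibre genes, 20 matrix glycoproteins and 22 matrix proteases and inhibitors was called, and the medians of the 5 lists lay between -0.06 and 0.14. Col1a1, the main fibrillar collagen chain, had 630, 624, 570, 578 and 638 CPM with saracatinib and 529, 586, 798, 742 and 790 CPM with vehicle. The saracatinib values all lay within the vehicle range (log2 fold change -0.18 ± 0.13, edgeR adjusted p = 0.591). The log2 fold change was -0.03 for Col3a1, -0.35 for elastin (Eln), -0.44 for smooth muscle actin (Acta2), -0.33 for the protease inhibitor Timp1 and 0.47 for Cthrc1, a gene of activated fibroblasts (edgeR adjusted p = 0.945, 0.542, 0.498, 0.554 and 0.427). Fn1 had 549, 818, 595, 526 and 550 CPM with saracatinib and 871, 398, 353, 360 and 341 CPM with vehicle, a log2 fold change of 0.39 ± 0.21 (edgeR adjusted p = 0.494). Vehicle library 1 was the highest of the 10, and every saracatinib library was above the other 4 vehicle libraries.

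Of the TGFβ ligands and feedback genes, 0 of 21 were called (median 0.00). The ligand Tgfb3 had 53.5, 56.5, 55.1, 48.8 and 49.1 CPM with saracatinib, against 56.7, 62.1, 81.3, 89.8 and 68.7 CPM with vehicle. The groups did not overlap, and its log2 fold change was -0.45 ± 0.11 (edgeR adjusted p = 0.385). It was called without vehicle library 1 (-0.51, edgeR adjusted p = 0.0193). Tgfb1, the ligand that the other vector of the model carries, had a log2 fold change of 0.04 ± 0.15 (edgeR adjusted p = 0.932).

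Several lists of cell type and pathway genes lay on one side without a call. Of all 18834 genes tested, 10274 were below 0. Of the 16 markers of ciliated airway cells, all were below 0 (median log2 fold change -0.47) and 7 passed an unadjusted p of 0.05, where 6.6% of all genes were lower at that limit. Without saracatinib libraries 2 and 3, and likewise without saracatinib library 2 and vehicle library 5, 1 of the 16 passed it, with medians of -0.40 and -0.25. Foxj1, the master regulator of cilia, had 94.5, 88.2, 125, 157 and 102 CPM with saracatinib and 106, 116, 152, 207 and 214 CPM with vehicle, with overlap (edgeR adjusted p = 0.418). The 11 markers of club and other secretory airway cells were also below 0 (median -0.36, 1 past the unadjusted limit, and 3 in each of those fits). The summed level of the ciliated list was 1260 to 2150 CPM with saracatinib and 1150 to 2660 CPM with vehicle, and its lowest library was vehicle library 1. In saline and in Ad-TGFβ1 lungs the median of the ciliated list was on the other side, at 0.33 and 0.27.

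Some immune lists and the cell cycle list were on the lower side as well. Other immune lists had medians above 0, at 0.31 for neutrophil and myeloid genes, 0.26 for alveolar macrophage markers and 0.18 for B cell markers. Medians were -0.24 for dendritic cell and MHC class II genes, -0.19 for plasma cell genes, -0.14 for monocyte-derived macrophage markers and -0.01 for NK markers. Of the 10 genes of MHC class I presentation 10 were below 0 (median -0.33, 4 past the unadjusted limit), and of 20 interferon-stimulated genes 20 (median -0.33, 2 past it). Of 18 T cell markers 18 were below 0 (median -0.35, 1 past it), and of 23 cell cycle genes 23 (median -0.31, none past it). Over all 18834 genes tested, 10274 were below 0 and 6.6% were lower at that limit. H2-K1, a class I heavy chain, had 419, 578, 443, 409 and 475 CPM with saracatinib and 783, 491, 934, 774 and 331 CPM with vehicle. The vehicle values spread widely and included the lowest of all 10. The number of genes past the unadjusted limit turned on the libraries in the fit. The shares of all genes given with the next fits count either direction. Without saracatinib library 2 and vehicle library 5 it was passed by 10 of the 10 class I genes, 7 of the 20 interferon-stimulated genes, 14 of the 18 T cell markers and 10 of the 23 cell cycle genes, where 7.56% of 19010 genes did. Without saracatinib libraries 2 and 3 it was passed by 4, 1, 10 and 7 of them, where 8.85% of 19245 genes did, and no gene was called in either fit. Saracatinib library 2 and vehicle library 5 were the most distant of their groups on the components of the 10 libraries, but vehicle library 5, at 55.7, was barely farther than vehicle library 1, at 55.5. Vehicle library 5 also held the lowest summed level of the 5 vehicle libraries for class I genes (1470 CPM, against 1910 to 3290 CPM in the others) and for T cell markers (72.4 CPM, against 133 to 217 CPM), so leaving it out raises the vehicle mean of both. Saracatinib library 2 held the highest of the 5 saracatinib libraries for class I genes (2360 CPM) and T cell markers (185 CPM). Leaving it out lowers the saracatinib mean of both. For T cell markers and cell cycle genes, saracatinib libraries 2 and 3 were above every other saracatinib library. Of the 14 cholesterol synthesis genes 14 were below 0 (median -0.20), and 5 passed the unadjusted limit; Srebf2, the factor that drives them, had a log2 fold change of -0.16 ± 0.06 (edgeR adjusted p = 0.392), with no overlap between groups. Without saracatinib library 2 and vehicle library 5, 9 of the 14 passed it (median -0.26), and without saracatinib libraries 2 and 3 none did (median -0.14).

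A further list held immediate early genes, which respond fast to stimuli and injury, and targets of the serum response factor. Of its 16 genes 4 were lower and 1 was higher at the unadjusted limit, where 6.6% and 4.47% of all genes were. Without saracatinib libraries 2 and 3, 2 were lower, where 8.85% of all genes passed the limit in either direction. Without saracatinib library 2 and vehicle library 5, 4 were lower, where 7.56% of all genes passed it in either direction. Atf3, a stress-induced transcription factor, had 7.32, 7.29, 9.72, 10.4 and 16.0 CPM with saracatinib and 16.0, 13.4, 38.7, 29.5 and 13.5 CPM with vehicle. Its log2 fold change was -1.14 ± 0.27 (edgeR adjusted p = 0.385), and only saracatinib library 5 reached the vehicle range. Hspa1a, a heat shock chaperone, was at 3.50 to 50.3 CPM with saracatinib and 5.23 to 165 CPM with vehicle. The highest value was that of vehicle library 1. Without this library the median of the 10 heat shock genes was -0.08, against -0.38 with all libraries.

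Genes of fat and muscle followed single libraries. Adipoq, made by fat cells, had 1.13, 26.5, 37.2, 1.32 and 1.75 CPM with saracatinib and 6.45, 6.80, 1.02, 2.84 and 0.102 CPM with vehicle. All 11 fatty acid and adipocyte genes tested were above 0 (median 1.36), as were 8560 of all 18834 genes. Past the unadjusted limit were 9 of the 11, where 4.47% of all genes were higher. The summed level of the list was 1990 to 4570 CPM with saracatinib and 1760 to 3750 CPM with vehicle. Ucp1, the marker of brown fat, had 1 to 57 counts with saracatinib and 0 to 3 with vehicle. Without saracatinib libraries 2 and 3 the median of the list was -0.13 and none passed the limit, and without saracatinib library 2 and vehicle library 5 it was 0.74, again with none past the limit. Those libraries also held Prg4, a lubricant of joints and body cavities, at 15.3 and 14.5 CPM, against 0.204 to 2.00 CPM in the other 8. Acta1, skeletal muscle actin, was at 118 CPM in saracatinib library 2 and at most 0.405 CPM in the other 9. The 12 striated muscle markers summed to 632 to 3130 CPM with saracatinib and 290 to 2020 CPM with vehicle. The part that fat or muscle RNA has in other results was not tested.

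**Figure D4:**
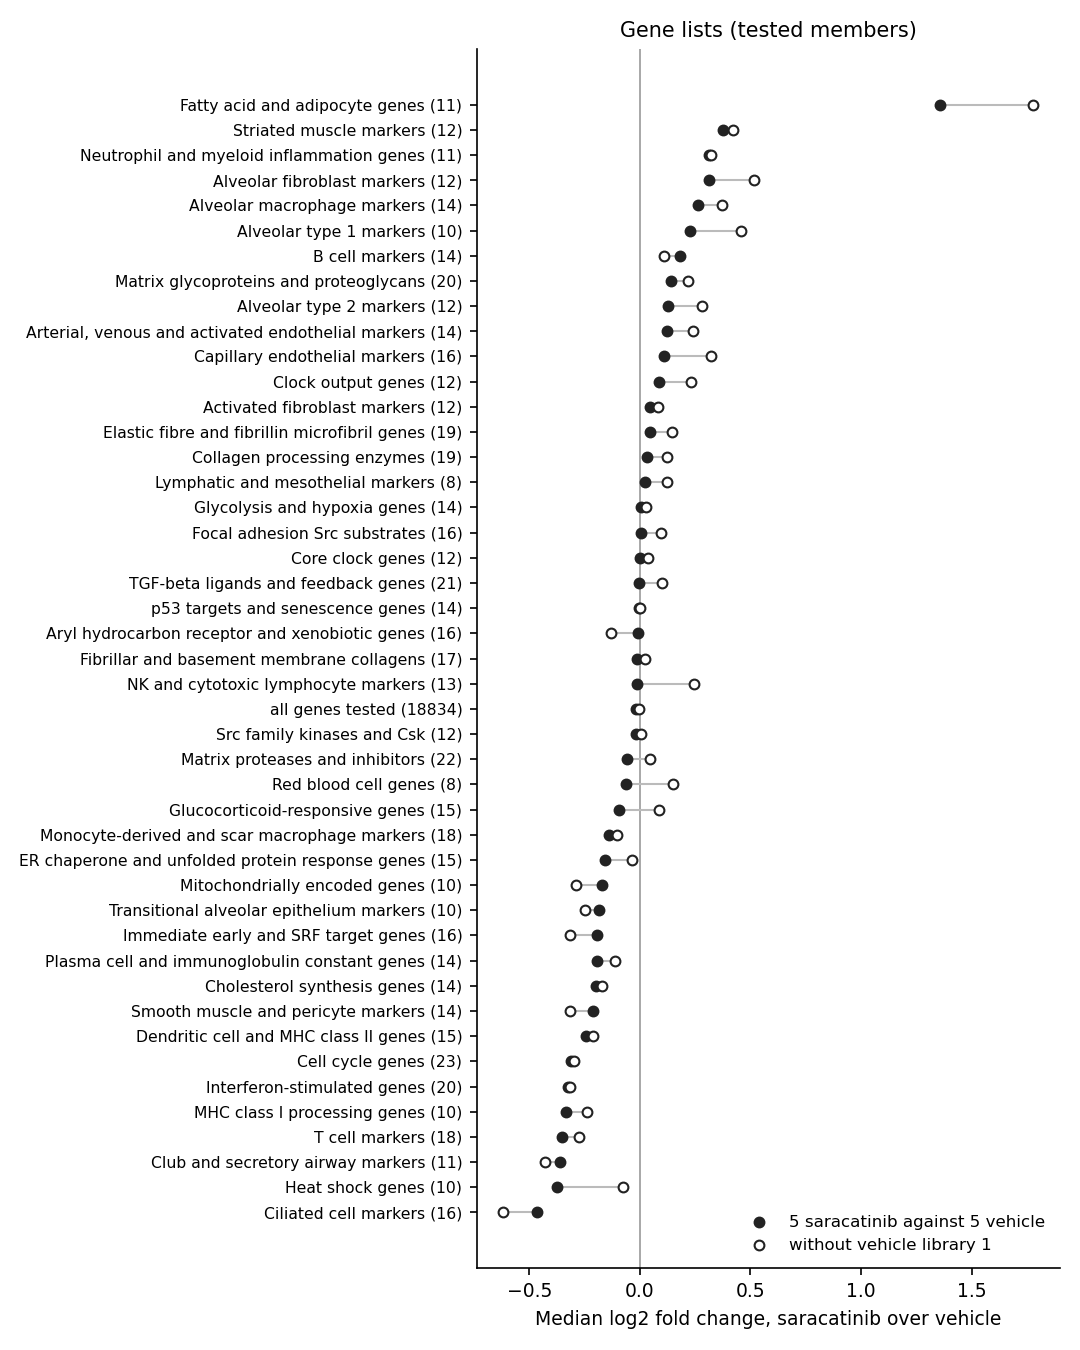
Median log2 fold change, saracatinib over vehicle, of each gene list with at least 3 tested members (numbers in brackets), with all 10 libraries (filled) and without vehicle library 1 (open). Fatty acid and adipocyte genes lie highest (1.36) and ciliated cell markers lowest (-0.47) with all 10 libraries, and the alveolar, fibroblast and capillary lists move up and heat shock genes move toward 0 without vehicle library 1.

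The number of called genes turned on vehicle library 1. Without it, 1112 of 19000 genes were called (5.85%), 592 higher (3.12%) and 520 lower (2.74%), Adm among them (log2 fold change -1.11 ± 0.19, edgeR adjusted p = 0.0104). Leaving out vehicle library 2 gave 4 called genes, and leaving out any other of the 10 libraries gave 0. The 1112 calls depended in turn on the remaining libraries: leaving out a second library gave 7 to 2501 calls, and a fit of only the 9 empty-vector libraries left gave 0 by edgeR (3647 genes at an unadjusted p under 0.05). The fit of 9 libraries estimates the spread without the Ad-TGFβ1 libraries, and why the calls were lost in it was not tested. Vehicle library 1 held the highest of the 5 vehicle values in 28.1% of genes and the lowest in 30.6%, and vehicle library 5 in 27.0% and 22.2%.

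**Figure D5:**
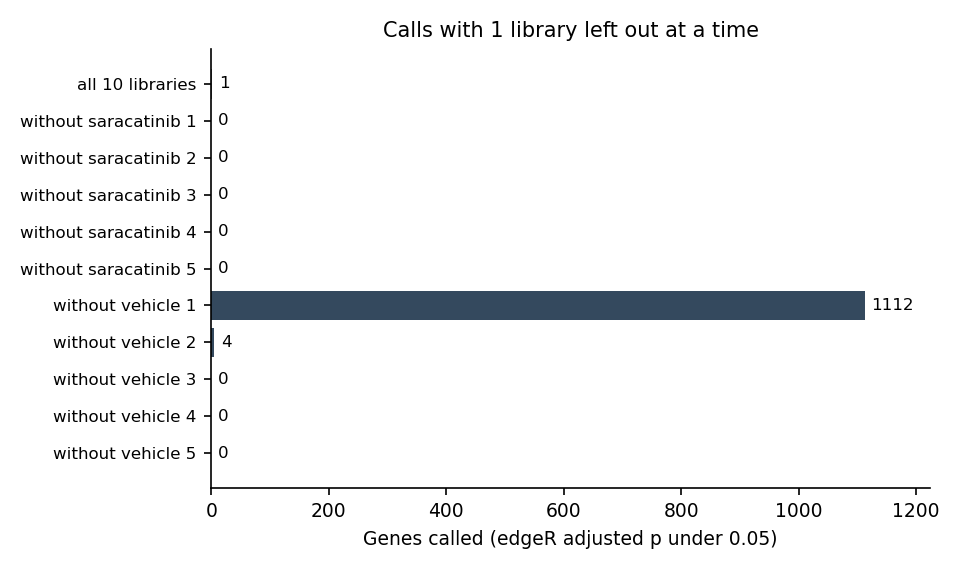
Number of genes called by edgeR with all 10 empty-vector libraries and with each left out in turn, saracatinib libraries above vehicle libraries. Without vehicle library 1 the number was 1112, without vehicle library 2 it was 4, and the other 8 fits gave 0.

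Without vehicle library 1, the genes called belonged to named groups as follows, where 3.12% of all 19000 genes were called higher and 2.74% lower. Of 12 alveolar fibroblast markers 5 rose and none fell, among them Pdgfra, a growth factor receptor that marks these cells, at 448 ± 24.0 CPM with saracatinib (SD, n = 5) and 323 ± 39.5 CPM with vehicle (SD, n = 4; log2 fold change 0.47 ± 0.08, edgeR adjusted p = 0.00911). Vehicle library 1 itself was at 533 CPM, above every saracatinib library. Of the 10 type 1 and 12 type 2 alveolar markers 5 and 4 rose, with Ager, a type 1 marker, at 0.47 and Sftpc, the type 2 surfactant gene, at 0.53 (edgeR adjusted p = 0.039 and 0.0334). The summed level of both lists was highest of all 10 libraries in vehicle library 1, at 4960 and 11700 CPM. The other vehicle libraries had 2250 to 3190 and 7090 to 8680 CPM, so leaving library 1 out lowers the vehicle mean of both. Fn1 rose by 0.76 ± 0.13 (edgeR adjusted p = 0.0127). Its high value in vehicle library 1 was among those given for setting that library apart, so this p is not independent of that choice. The library was also set apart by its place on the first principal component, which draws on all genes tested. The p-values of the other genes in this fit are therefore not independent of the choice either. Of the 17 collagens the basement membrane chains Col4a1 and Col4a2 and the fibril-associated Col12a1 rose. Of the 19 collagen processing enzymes 4 rose, the crosslinking enzyme Lox (0.57), the lysyl hydroxylase Plod2 (0.46), the propeptidase enhancer Pcolce2 (0.60) and the transglutaminase Tgm2 (0.33). Of the 19 elastic fibre genes Fbln5 rose (0.50), of the 20 matrix glycoproteins Sparc (0.39), Spp1 (0.96), Nid1 (0.35) and Hspg2 (0.25) rose beside Fn1, and of the 22 proteases and inhibitors Timp2 (0.30) and Timp3 (0.47) rose, and no gene of these 5 lists fell (edgeR adjusted p from 0.00911 to 0.0445). In each of the matrix genes named for this fit, vehicle library 1 itself was above the saracatinib mean. Of the 16 capillary markers 4 rose. Their summed level was also highest of all 10 libraries in vehicle library 1 (5730 CPM, against 3150 to 4170 CPM in the other vehicle libraries).

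On the lower side of that fit, 9 of the 16 ciliated markers fell, among them the dynein heavy chain gene Dnah5 (-0.60, edgeR adjusted p = 0.033). Vehicle library 1 had the lowest summed level of that list, at 1150 CPM, so leaving it out raises the vehicle mean. Of the 16 immediate early genes and serum response factor targets 4 fell. Fosb, one of these, had 6.75, 4.83, 9.34, 6.78 and 10.5 CPM with saracatinib, against 18.2, 22.7, 13.7 and 18.3 CPM in vehicle libraries 2 to 5 and 3.97 CPM in vehicle library 1 (log2 fold change without that library -1.24 ± 0.21, edgeR adjusted p = 0.00911). Of the clock genes, Npas2 (-1.35) and Nfil3 (-0.82) fell, and Nr1d1 (0.73) and Nr1d2 (0.61) rose (edgeR adjusted p = 0.0145, 0.0327, 0.0402 and 0.0347). No T cell, class I, interferon-stimulated or cell cycle gene of the lists was called.

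The drug effect in empty-vector lungs was set against that in saline lungs in a fit of all 40 libraries. Of 19529 genes, 6 differed (0.0307%), and 10 were called for saracatinib in saline lungs (0.0512%). Adamtsl2, a secreted protein of fibrillin microfibrils, had 77.7, 87.9, 66.9, 69.0 and 115 CPM with saracatinib in empty-vector lungs, against 93.2, 50.5, 48.6, 69.0 and 71.4 CPM with vehicle. In saline lungs it had 98.2, 104, 79.4, 99.4 and 78.8 CPM with saracatinib, against 163, 163, 275, 182 and 241 CPM with vehicle. Its log2 fold change was 0.32 in empty-vector lungs, where the groups overlapped, and -1.15 in saline lungs, where they did not, a difference of 1.47 ± 0.25 (edgeR adjusted p = 0.0104). The saline vehicle libraries were all above the empty-vector vehicle libraries.

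Tmem119, a membrane protein best known from bone-forming cells and microglia, had 31.5, 34.1, 29.7, 30.8 and 28.5 CPM with saracatinib in empty-vector lungs, against 32.2, 22.3, 18.1, 19.0 and 24.7 CPM with vehicle. In saline lungs it was at 21.7 to 33.8 CPM with saracatinib and 43.9 to 52.9 CPM with vehicle, and the difference of the effects was 1.14 ± 0.20 (edgeR adjusted p = 0.013). Lpgat1, an enzyme that remodels phospholipids, differed by 0.40 ± 0.07 (edgeR adjusted p = 0.0104), with effects of 0.06 in empty-vector and -0.35 in saline lungs. Rnf170, a ubiquitin ligase of the endoplasmic reticulum, differed by 0.44 ± 0.09 (edgeR adjusted p = 0.0396) and the antisense transcript Bcas3os1, which overlaps Bcas3 on the other strand, by 1.73 ± 0.32 (edgeR adjusted p = 0.0251). Bcl6b, a transcriptional repressor, went the other way. It had 38.8, 28.3, 24.7, 42.8 and 49.2 CPM with saracatinib in empty-vector lungs, against 65.5, 46.6, 66.9, 65.0 and 64.8 CPM with vehicle. In saline lungs it had 104, 97.1, 89.1, 112 and 70.8 CPM with saracatinib, against 42.7, 40.1, 35.5, 50.7 and 43.2 CPM with vehicle, and the difference was -1.91 ± 0.37 (edgeR adjusted p = 0.0396). Adamtsl2, Tmem119 and Lpgat1 were called in all 20 fits that left out 1 library of the 4 groups, Bcas3os1 in 12, Rnf170 in 8 and Bcl6b in 7.

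Against Ad-TGFβ1 lungs, no drug effect differed past the threshold (0 of 18834 genes, edgeR); 1933 (10.3%) had an unadjusted p under 0.05, DESeq2 called 1 and limma voom with quality weights 413. Without empty-vector vehicle library 1, edgeR called 1190, and the count against saline lungs was 248. Across genes, which are not independent replicates, the log2 fold changes in empty-vector lungs had a Pearson r of -0.11 with those in saline lungs over 19529 genes, with the same sign in 38.7% of them. With those in Ad-TGFβ1 lungs r was -0.02 over 18834 genes, with the same sign in 47.8%. These comparisons share no library.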

How the data were processed

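Per the labels' protocols, left-lung RNA was depleted of ribosomal RNA and made into stranded libraries. The submitters' processing notes name STAR 2.6.1d, Picard, featureCounts of Subread 1.6.3, edgeR, and the builds mm9 and GRCm38. The authors deposited raw counts of 55536 genes in every library. The sources used here do not give the strand setting. Positions are from GENCODE on GRCm38.

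In R 4.3.3, edgeR 4.0.16 was run on the 20 libraries of the adenoviral model with filterByExpr, TMM scaling and the quasi-likelihood test, 1 coefficient per group and no covariate. The Benjamini-Hochberg adjustment covered every gene tested. The difference from saline lungs used all 40 libraries, among them the bleomycin lungs, which share in the estimate of the spread. DESeq2 1.42.0, limma 3.58.1 (voom with quality weights), other scaling, filters and sample sets were alternatives. The edgeR test was also tested on simulated data.

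The members, lists and tests were chosen with earlier results of these data known, and the fits that leave out pairs of libraries, or that start without vehicle library 1, were chosen after the data were seen. Named genes are a panel of 20, called genes, the 10 with the smallest p on each side at 1 CPM or more, up to 4 per list and the called differences. Genes named for the fit without vehicle library 1 are list members. The 46 lists were described by counts and medians, with no set test. Replicates were compared in 20 pairs, with a chi-square of 6.91 to 47.6 for each degree of freedom, so no pair agreed within counting noise. P-values measure the spread between libraries, and replicate numbers, given in accession order, are only names. Total counts per library set the precision of low genes such as Adm.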

Additional observations from a re-analysis of the deposited data

Results flagged for a closer look

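The gene values named in the text, with the 20 genes of smallest p, were checked, on the scale of the 20 libraries of the adenoviral model, in each group of 5 for a library far from the rest. Of 154 groups in 77 genes, 12 were found, where chance gives about 1 in 20. Among the saracatinib libraries these were Acta1 at 118 CPM and Fn1 at 818 CPM in library 2, Hspa1a at 50.3 CPM in library 5, Nfil3 at 11.1 CPM in library 1, and Lss at 38.6 CPM and Rnf170 at 20.7 CPM in library 4. Among the vehicle libraries they were Fn1 at 871 CPM, Rab3c at 4.80 CPM and Tcf21 at 48.1 CPM in library 1, Bcl6b at 47.6 CPM in library 2, and Src at 99.0 CPM and Tef at 253 CPM in library 5.

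The drug effect in empty-vector lungs differed from that in saline lungs, by edgeR's test of the difference over all genes, for Adamtsl2 (1.47 on the log2 scale), Bcas3os1 (1.73), Bcl6b (-1.91), Lpgat1 (0.40), Rnf170 (0.44) and Tmem119 (1.14).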

How the results depend on the processing

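The 1 call with all 10 libraries was also 1 with DESeq2's size factors, with limma voom and with all 40 libraries. It was 0 without a low-count filter, 7 with DESeq2 (2 higher, 5 lower), 0 with only the 10 empty-vector libraries, 0 without saracatinib library 2 and vehicle library 5, and 0 without saracatinib libraries 2 and 3. Leaving out 1 library at a time gave 0 to 1112. Without vehicle library 1, the 1112 calls became 1083 with DESeq2's size factors, 719 without a filter, 1966 with DESeq2, 1859 with limma voom and 0 with only the 9 libraries left. Leaving out a further library gave 7 to 2501. The count of differences from Ad-TGFβ1 lungs, 0 in the main test, was 1 with DESeq2, 413 with limma voom and 0 to 1190 with 1 library left out. That from saline lungs, 6, was 64 with DESeq2, 490 with limma voom and 3 to 248 with 1 library left out, 248 without empty-vector vehicle library 1, 29 without its library 2 and 13 without saline vehicle library 5. The cause was not tested. Of 845 values of 45 gene results, 759 stayed on their side of the threshold, 47 were no longer called, 27 became called and 12 changed sign, in 5 genes close to 0. With 1 library left out, Col3a1 ran from -0.070 to 0.033, Src from -0.072 to 0.020 and Ciart from -0.043 to 0.211. Without saracatinib library 2 and vehicle library 5, Lyn was -0.001, Src 0.059 and Tgfb1 -0.019, and without saracatinib libraries 2 and 3 Src was 0.063. No paired analysis was possible because the labels give no replicate numbers that tie libraries of different groups. Genes near 1 CPM rest on about 10 counts per library, so small changes there were not detectable at this depth.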
